A study of Mus musculus with 22 samples.

Results

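The Hox genes of the 4 mouse Hox clusters, Hoxa, Hoxb, Hoxc and Hoxd, were followed in embryonic stem cells that lacked Dux and expressed DUX or altered forms of it. Members were chosen by name alone (Hox, a cluster letter and a number), which gave 39 of the 55487 genes listed. The cells were a Dux-/- mouse embryonic stem cell line kept in 2iLIF medium, and every group, the controls included, carried this knockout. Each line held a doxycycline-inducible transgene for mCherry, a red fluorescent protein, alone or joined to a Dux coding sequence. All groups received doxycycline at 0.25 ug/mL for 12 hours, after 24 hours of recovery from plating, and polyadenylated RNA was sequenced. DUX is a transcription factor with a pair of homeodomains that turns on genes of the 2-cell embryo.

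A table called the chimera table here held 7 groups: mCherry (the tag alone), FL (FL Dux), C3+14, C1C3a, C1C3b, C1C3c and C1+14. Another, the deletion table, held 4: FL, C12345delt14, deltC12345+14 and deltC12345delt14. The labels give these construct names without saying which residues each holds or what separates a, b and c. Every group had 2 libraries, and the FL libraries were the same in both tables. The labels do not say whether replicates came from separate cultures or clones, so the p-values measure only the spread between these libraries. C3delt14, with 2 samples, was not analysed here.

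Hox genes code for homeodomain transcription factors that give cells their position along the body axis. Within a cluster the genes lie in the order in which they act from head to tail, with low paralog numbers anterior and high numbers posterior. In embryonic stem cells the clusters are held largely silent by Polycomb group repressors, and retinoic acid, Cdx factors and Trithorax group activators open them during differentiation. HOX proteins bind DNA with the TALE homeodomain cofactors PBX and MEIS.

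Values are normalised reads: reads per gene divided by the authors' size factor for that library. Library totals ran from 21059953 to 40448890 reads. Duxf3, the annotated Dux gene, was listed at 0 in all 14 libraries of the chimera table and all 8 of the deletion table, those with a Dux transgene included. It therefore checks neither the knockout nor the dose of each transgene, and differences in dose between constructs were not tested. The 8 embryonic stem cell markers, Pou5f1 and Nanog among them, were all detected, with summed levels from 100350 to 102013 in mCherry and from 47359 to 83806 in the other groups of the chimera table. Called as defined below, 6 of the 8 were lower than mCherry in FL, 5 in each of C3+14 and C1C3b, 4 in C1C3c and 3 in C1C3a. None was called higher in these groups, where 10.5% to 19.6% of all genes were called lower. In C1+14 Zfp42 was called lower (-1.42). In C1C3b the log2 fold change was -3.77 for Nanog and 0.09 for Pou5f1. The 6 markers of the 2-cell embryo summed to 0.66 and 0.858 in the mCherry libraries, to 4.96 and 10.96 in C1+14, to 823 to 897 in C1C3c and to at least 13384 in C1C3b, C1C3a, C3+14 and FL. In bulk RNA a change in the number of cells that express a gene and a change in RNA per cell cannot be told apart.

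Properties of the libraries moved with the groups. Reads on processed pseudogenes made up 4.06% and 4.13% of the mCherry libraries and 5.72% to 8.29% of the other libraries of the chimera table, so this share and the expression of a construct cannot be told apart. One read was also worth 1.19 to 1.47 normalised reads in FL and 0.66 to 0.858 in mCherry, while the totals of these libraries ran from 23949774 to 32168300. When counts scaled to each library total (RPM) replaced the authors' size factors, the median log2 fold change of all genes in FL against mCherry moved from 0.09 to -0.86. The same step moved it from 0.23 to -0.52 for C3+14 and from 0.12 to -0.73 for C1C3a. In C1C3b it became 0.06, in C1C3c 0.20 and in C1+14 0.16. Hox changes are therefore also given relative to that median. RPM rescales each library by a single factor, which shifts all genes alike apart from the constant added before taking logs. A value relative to the median therefore stays nearly the same under RPM by construction, which is no check of the scaling.

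A gene was tested when it reached 10 normalised reads in 2 libraries of its table, and called when limma gave a Benjamini-Hochberg adjusted p under 0.05 over all tested genes and a log2 fold change of at least 1 in either direction. Of the 39 Hox genes, 28 entered the test of the chimera libraries and 26 that of the deletion libraries. The filter can pass a gene through the 1 group in which it is high. Log2 fold changes were taken after adding 1 to each value, so those of weakly expressed genes come out too small. The 6 comparisons with mCherry share the same 2 mCherry libraries.

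**Figure D1:**
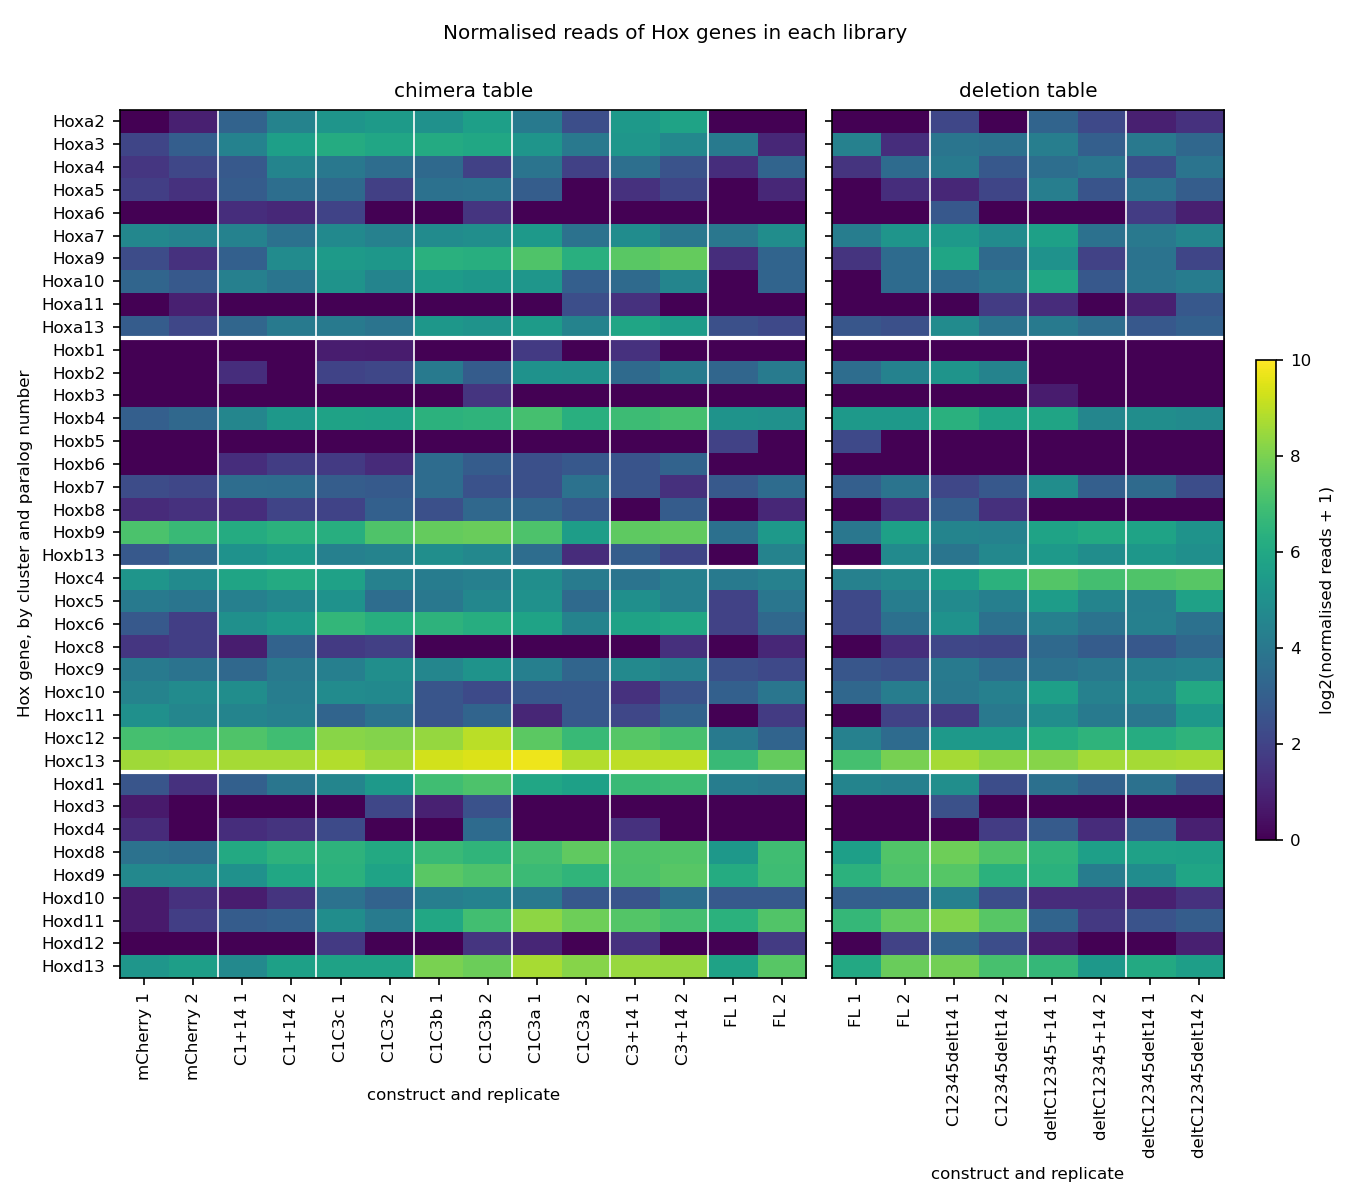
Colour shows log2(normalised reads + 1) of the Hox genes reported by name (rows, by cluster and paralog number) in each library (columns, by construct and replicate), with the chimera table on the left and the deletion table on the right, which were scaled separately. Hoxc13 is the highest of these rows in every library, the rows of Hoxd8 to Hoxd13 other than Hoxd12 brighten from mCherry towards C3+14 and C1C3a, and Hoxb1, Hoxb3 and Hoxb5 stay at 2 reads or fewer in every library.

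The mCherry libraries already held Hox RNA, mostly of the posterior end of Hoxc. Per kilobase of exon, the highest group means in mCherry were Hoxc13 at 160.1, Hoxc12 at 124 and Hoxb9 at 48.9 normalised reads. In FL the order was Hoxc13 at 62.2, Hoxd13 at 44.5 and Hoxd9 at 43.5 normalised reads per kilobase. In C1C3b it began with Hoxc12 at 409 and Hoxc13 at 274. Both libraries stood at 3 reads or fewer for 15 of the 39 Hox genes in mCherry, 16 in FL and 6 in C1C3c.

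Counted over all 28 tested Hox genes, 13 were called in FL against mCherry, 8 higher and 5 lower, where 44.2% of all 21584 tested genes were called. The Hox share was 46.4%, close to that of all genes. With RPM the split was 4 higher and 9 lower, and with quantile normalisation 4 higher and 11 lower. C3+14 had 14 higher and 2 lower (47.3% of all genes called), with 12 and 5 under quantile normalisation. C1C3a had 14 higher and 2 lower (46.4% of all genes), with 13 and 4 under RPM. C1C3b had 17 higher and 2 lower (44.7% of all genes).

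C1C3c had 14 higher and none lower, and 28.8% of all genes were called in that comparison. C1+14 had 9 higher and none lower, against 18.3% of all genes, and 5 higher without C1+14 replicate 2. The median log2 fold change of the 28 Hox genes was -0.08 in FL, where that of all tested genes was 0.09. For C1C3b it was 2.41 (0.15 for all genes), for C3+14 1.64 (0.23), for C1C3a 1.55 (0.12), for C1C3c 1.43 (0.01) and for C1+14 1.12 (0). Relative to the median of all genes under RPM, the Hox medians were 2.27 for C1C3b, 1.56 for C3+14, 1.44 for both C1C3a and C1C3c, 1.19 for C1+14 and -0.03 for FL. By construction these stay close to the values with the authors' scaling. A moderated F test over the 7 groups called 23 of the 28, where it called 89.9% of all tested genes.

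By paralog number, the 5 tested genes numbered 1 to 3 had a median log2 fold change of 0.08 in FL, 3.79 in C3+14 and 1.45 in C1+14. For the 9 genes numbered 4 to 8 the medians were 0.37, 0.68 and 1.61. For the 14 genes numbered 9 to 13 they were -1.0, 0.79 and 0.08. In C1C3a, C1C3b and C1C3c the medians were 2.82, 3.50 and 2.95 for genes numbered 1 to 3. They were 0.88, 0.81 and 1.01 for those numbered 4 to 8, and 0.89, 2.04 and 1.25 for those numbered 9 to 13.

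The Hoxd cluster (chr2:74668310-74765142, GRCm38, + strand) stood above mCherry in every construct. All 6 tested members, Hoxd1, Hoxd8, Hoxd9, Hoxd10, Hoxd11 and Hoxd13, were called higher than mCherry in FL, C3+14, C1C3a and C1C3b, 5 in C1C3c and 3 in C1+14. Of all tested genes, 29.6% were called higher in C3+14, 27.6% in C1C3b, 27.4% in C1C3a, 24.5% in FL, 18.3% in C1C3c and 12.4% in C1+14. The summed cluster stood at 82.5 and 90.1 normalised reads in mCherry, 268 and 586 in FL, 923 and 920.0 in C3+14, and 1040.5 and 849 in C1C3a. It stood at 737 and 764 in C1C3b, 293 and 245 in C1C3c, and 139.6 and 224 in C1+14. Every library of the 6 constructs lay above both mCherry libraries.

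The direction of these Hoxd calls held under RPM and quantile normalisation except for Hoxd10 in C3+14, which stood at -0.08 under quantile normalisation. The number of FL calls fell from 6 to 3 under each of these scalings: RPM ended those of Hoxd9, Hoxd10 and Hoxd13, and quantile normalisation those of Hoxd1, Hoxd10 and Hoxd13. Relative to the median of all genes, the Hoxd median in FL was 1.86 with the authors' scaling, 1.94 with RPM and 1.29 with quantile normalisation. The RPM value stays close to that of the authors' scaling by construction.

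Windows of 250 bases upstream of RefSeq starts (GRCm38.p6) are shown for Hoxd1, Hoxd8 and Hoxd11, which were called higher than mCherry in all 6 constructs, and for Hoxd13, called higher in 4. Those of Hoxb4 and Hoxa2, from other clusters, are set beside them. Capitals mark matches on either strand to TAAT, the core that homeodomains bind. They also mark TGATTNAT, a composite of HOX and PBX sites. The last motif marked is the TATA box, searched as TATAAA. Overlapping matches run together.
Hoxd1, chr2:74762730-74762979 (+ strand): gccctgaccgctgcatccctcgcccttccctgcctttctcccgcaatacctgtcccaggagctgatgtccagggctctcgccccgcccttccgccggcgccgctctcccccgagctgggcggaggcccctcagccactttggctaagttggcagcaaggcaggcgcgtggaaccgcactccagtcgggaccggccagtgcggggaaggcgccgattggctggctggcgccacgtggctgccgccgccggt
Hoxd8, chr2:74704365-74704614 (+ strand): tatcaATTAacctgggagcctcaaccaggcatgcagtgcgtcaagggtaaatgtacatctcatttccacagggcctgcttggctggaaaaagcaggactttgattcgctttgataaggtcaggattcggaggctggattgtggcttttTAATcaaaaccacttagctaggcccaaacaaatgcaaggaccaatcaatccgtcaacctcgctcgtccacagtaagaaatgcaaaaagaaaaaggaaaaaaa
Hoxd11, chr2:74679308-74679557 (+ strand): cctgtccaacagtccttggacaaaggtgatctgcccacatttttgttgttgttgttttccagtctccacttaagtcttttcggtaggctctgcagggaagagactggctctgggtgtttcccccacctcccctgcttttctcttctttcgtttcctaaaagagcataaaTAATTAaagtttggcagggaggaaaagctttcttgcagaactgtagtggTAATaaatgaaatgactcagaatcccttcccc
Hoxd11, chr2:74682073-74682322 (+ strand): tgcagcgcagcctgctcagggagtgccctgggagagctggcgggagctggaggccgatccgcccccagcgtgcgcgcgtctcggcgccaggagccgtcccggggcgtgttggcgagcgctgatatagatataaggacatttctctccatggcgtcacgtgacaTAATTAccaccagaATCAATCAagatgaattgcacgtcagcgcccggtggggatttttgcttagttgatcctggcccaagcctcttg
Hoxd13, chr2:74667975-74668224 (+ strand): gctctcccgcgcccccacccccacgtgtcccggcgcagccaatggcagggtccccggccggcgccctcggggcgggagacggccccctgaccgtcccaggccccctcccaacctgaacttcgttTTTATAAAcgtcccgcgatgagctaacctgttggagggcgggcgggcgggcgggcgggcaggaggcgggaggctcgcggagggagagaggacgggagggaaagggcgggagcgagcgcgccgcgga
Hoxb4, chr11:96318017-96318266 (+ strand): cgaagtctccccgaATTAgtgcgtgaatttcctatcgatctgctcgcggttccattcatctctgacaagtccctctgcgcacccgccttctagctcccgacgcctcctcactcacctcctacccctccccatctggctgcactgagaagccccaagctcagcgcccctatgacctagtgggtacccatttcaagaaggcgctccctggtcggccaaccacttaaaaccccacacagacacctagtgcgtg
Hoxa2, chr6:52164832-52165081 (- strand): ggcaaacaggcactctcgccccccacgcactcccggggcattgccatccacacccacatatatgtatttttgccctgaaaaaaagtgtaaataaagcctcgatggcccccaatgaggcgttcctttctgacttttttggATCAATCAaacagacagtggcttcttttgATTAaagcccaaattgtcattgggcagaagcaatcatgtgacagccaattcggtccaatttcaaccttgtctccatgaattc
The second of the Hoxd11 windows lies within the annotated Hoxd11 gene, outside its exons, and the Hoxd1 window holds an exon of the noncoding RNA Haglr.

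RefSeq windows (250 bases before to 50 after a start) were found for 22 of the 39 Hox genes, 24 windows in all. Their median was 14.5 CpG dinucleotides, against 7 over all 32851 windows of 27025 genes. TAAT occurred in 79.2% of the Hox windows and 58.0% of all windows. TGATTNAT occurred in 2 Hox windows, those of Hoxa2 and Hoxd11 (8.33%, against 3.22% of all), and TATAAA in 16.7% against 13.6%. The printed windows of Hoxd1 and Hoxd13 hold no TAAT, although both genes rose. These matches describe letters and were tied to no binding data.

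Hoxd11, a posterior gene known for its part in forearm and kidney development, had the largest log2 fold change of the 6 in every construct except C1+14. Its mCherry values were very low, so its fitted log2 fold changes depend on the 1 added to each value. Its normalised reads were 0.66 and 2.57 in mCherry, 6.58 and 7.44 in C1+14 and 28.6 and 16.9 in C1C3c. They reached 62.3 and 125 in C1C3b, 82.5 and 155 in FL, 159 and 126 in C3+14 and 314.4 and 221 in C1C3a. The libraries of every construct lay above those of mCherry, with C1C3a highest and no overlap between C1C3a and the other groups. The log2 fold change against mCherry was 5.55 ± 0.49 (SE; limma adjusted p = 6.3e-07) in FL and 6.76 ± 0.49 (SE; limma adjusted p = 7.4e-08) in C1C3a. In C1+14 it was 1.72 ± 0.49 (SE; limma adjusted p = 0.018), a call that ended without either C1+14 library (1.79 and 1.64) or without mCherry replicate 1 (1.16), and under edgeR (2.21). Its exons overlap those of Gm28309 on the same strand over 10.8% of their length, so a part of its reads could be split with that gene.

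Hoxd1, the most anterior member of the cluster, had 5.28 and 1.72 in mCherry, 17.7 and 15.5 in FL and 7.31 and 14.3 in C1+14. It had 22.6 and 41.9 in C1C3c, 58.7 and 51 in C1C3a, 107 and 113 in C3+14 and 122 and 146 in C1C3b. FL and C1+14 lay under C1C3a, C3+14 and C1C3b, without overlap. Against mCherry its log2 fold change was 2.09 ± 0.48 (SE; limma adjusted p = 0.0021) in FL and 4.75 ± 0.48 (SE; limma adjusted p = 2e-06) in C3+14. In C1+14 the value was 1.45 ± 0.48 (SE; limma adjusted p = 0.035), and the call ended without C1+14 replicate 2 (1.01) or mCherry replicate 2 (0.84).

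Hoxd8, a gene of the middle of the cluster, was the Hoxd member that C1+14 raised most. Its values were 12.5 and 11.2 in mCherry, 66.5 and 86.2 in C1+14, 86.7 and 67 in C1C3c and 108 and 92 in C1C3b. They were 39.8 and 123 in FL, 151 and 155 in C3+14 and 127 and 187 in C1C3a. All construct libraries exceeded mCherry, and the FL pair spanned the C1+14, C1C3c and C1C3b libraries. Its log2 fold change was 2.58 ± 0.43 (SE; limma adjusted p = 0.00068) in C1+14 and 2.47 ± 0.43 (SE; limma adjusted p = 0.00024) in FL.

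Hoxd9 had 24.4 and 25.7 in mCherry, 32.2 and 61.4 in C1+14, 83.7 and 54.1 in C1C3c and 69.2 and 117 in FL. It reached 113 and 93.4 in C1C3a, 147 and 168 in C3+14 and 173 and 147 in C1C3b. The groups C3+14 and C1C3b lay above all libraries of the other groups. Its log2 fold change was 2.62 ± 0.36 (SE; limma adjusted p = 3.9e-05) in C1C3b and 1.80 ± 0.36 (SE; limma adjusted p = 0.00075) in FL.

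Hoxd13, the most posterior member, which patterns the digits, had 36.9 and 47.2 in mCherry, 24.9 and 50.8 in C1+14, 52.8 and 53.4 in C1C3c and 53 and 168 in FL. It had 253 and 216 in C1C3b, 411 and 292 in C1C3a and 350.2 and 345 in C3+14. C1C3b, C1C3a and C3+14 stood above every other library, whereas C1+14 overlapped mCherry. Its log2 fold change was 3.03 ± 0.45 (SE; limma adjusted p = 6.2e-05) in C3+14, and in FL it was 1.16 ± 0.45 (SE; limma adjusted p = 0.039). The FL call rested on FL replicate 2: without it the log2 fold change was 0.34, and it was 0.99 without mCherry replicate 1 and 1.33, not called, without mCherry replicate 2. Hoxd10, the lowest of the 6, ranged from 0.66 to 1.86 in mCherry and C1+14 and from 5.03 to 20.6 in the other groups. Its FL call ended without either FL library (1.71 and 1.70) or mCherry replicate 1 (1.35), and neither edgeR nor DESeq2 made it. Its C3+14 and C1C3a calls ended without 1 library of the construct or mCherry replicate 1, and its C1C3c call without mCherry replicate 1. The Hoxd9 call in C1C3c ended without C1C3c replicate 1 (1.08).

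**Figure D2:**
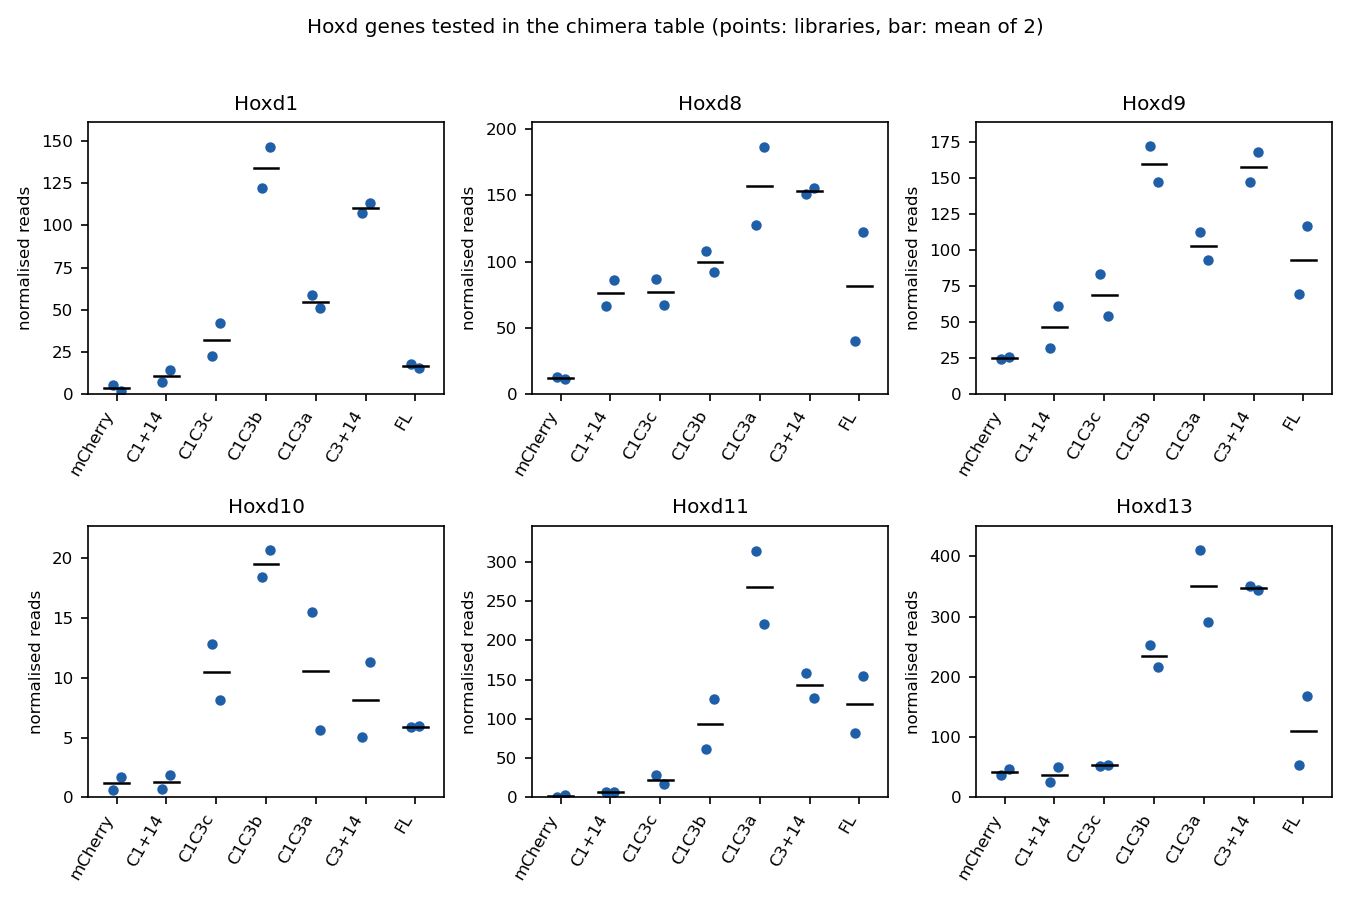
Points are the normalised reads of single libraries (y axis, starting at 0) for the 6 tested Hoxd genes, by construct (x axis), and bars are the mean of 2. Hoxd11 stands at 0.66 and 2.57 in mCherry and at 221 and 314.4 in C1C3a, while Hoxd13 in C1+14 overlaps mCherry.

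Of the Hoxb genes, 5 entered the test (cluster at chr11:96194316-96368256, + strand). Hoxb4 and Hoxb2 rose in FL, C3+14, C1C3a, C1C3b and C1C3c, and Hoxb4 also in C1+14. Hoxb9 fell in FL alone among the 6 comparisons with mCherry, and Hoxb7 and Hoxb13 passed in none. Hoxb13 had 5.94 and 9.44 in mCherry, 0 and 21.4 in FL and 32.9 and 42.2 in C1+14.

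Hoxb4, known for expanding blood stem cells, had 7.26 and 9.44 in mCherry, 23.4 and 39.7 in C1+14 and 33.9 and 32.1 in FL. It had 52.8 and 52.1 in C1C3c, 85.1 and 89.2 in C1C3b, 131 and 77.9 in C1C3a and 116 and 133 in C3+14. All construct libraries lay above mCherry, and FL lay within the C1+14 range. Its log2 fold change was 1.87 ± 0.36 (SE; limma adjusted p = 0.00054) in FL, where the value under RPM was 0.90 and the call ended, and 3.75 ± 0.36 (SE; limma adjusted p = 1.2e-06) in C3+14.

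Hoxb2, an anterior gene of the hindbrain, had 0 reads in both mCherry libraries and 1.46 and 0 in C1+14. It had 3.02 and 3.38 in C1C3c, 15.8 and 6.57 in C1C3b, 8.84 and 16.7 in FL, 10.1 and 16.2 in C3+14 and 33.2 and 32.6 in C1C3a. Against the floor of 3 reads in each mCherry library, it was at least 14.4-fold higher in C1C3a, at least 5.77-fold in C3+14 and at least 5.6-fold in FL. The fitted log2 fold change in FL was 3.72 ± 0.61 (SE; limma adjusted p = 0.00015), and it depends on the pseudocount of 1. In C1C3c the bound was only 1.40-fold, and the call ended without mCherry replicate 1 or 2, or C1C3c replicate 2. Hoxb3os lies on the opposite strand over 27.3% of its exons. The kit marked strand, but whether the counting used strand is not given in the sources used here.

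Hoxb9, a gene of the thorax, had 142 and 109.8 in mCherry, 69.4 and 83.7 in C1+14, 76.9 and 149 in C1C3c and 145 and 46.7 in C1C3a. It had 181 and 193 in C3+14, 199 and 209 in C1C3b and 11.8 and 40.5 in FL. The FL libraries were the lowest of the 14. In FL the log2 fold change was -2.45 ± 0.55 (SE; limma adjusted p = 0.0017). With only FL and mCherry in the fit the value was -2.45 and was not called.

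In the Hoxc cluster (chr15:102921103-103036852, + strand) the direction of change differed between members and constructs. In FL, where 19.6% of all genes were called lower, 4 of the 8 tested members fell (Hoxc9, Hoxc11, Hoxc12 and Hoxc13) and none rose. In the 5 other constructs Hoxc6 rose, while Hoxc10 and Hoxc11 fell in C3+14, C1C3a and C1C3b. Hoxc12 rose in C1C3b and C1C3c. Relative to the median of all genes the Hoxc median in FL was -1.37 with the authors' scaling, -1.41 with RPM and -1.63 with quantile normalisation. Here too the RPM value is close to that of the authors' scaling by construction.

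Hoxc13, which acts in hair and nail, had 384 and 404 in mCherry, 398 and 406 in C1+14, 455 and 367 in C1C3c and 108 and 199 in FL. It had 511 and 533 in C3+14, 853 and 460.1 in C1C3a and 631 and 716 in C1C3b. FL was the lowest group, and no FL library reached any other library. The log2 fold change in FL was -1.42 ± 0.29 (SE; limma adjusted p = 0.0008), which was -0.98 and not called without FL replicate 1.

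Hoxc12 had 131 and 125 in mCherry, 151 and 122 in C1+14, 164 and 134 in C3+14 and 176 and 106 in C1C3a. It had 16.2 and 8.33 in FL, 302 and 281 in C1C3c and 345 and 498 in C1C3b. The gene thus went down in FL and up in C1C3b and C1C3c, with no overlap with mCherry in either direction. The log2 fold changes were -3.35 ± 0.33 (SE; limma adjusted p = 1.6e-06) in FL and 1.69 ± 0.33 (SE; limma adjusted p = 0.00061) in C1C3b. In C1C3c it was 1.18 ± 0.33 (SE; limma adjusted p = 0.01), and the call ended without mCherry replicate 2 (1.15).

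Hoxc6, a gene of the thorax, had 5.94 and 2.57 in mCherry and 2.95 and 9.52 in FL. It had 31.4 and 40.3 in C1+14, 55.3 and 21.2 in C1C3a, 53.6 and 61.5 in C3+14, 86.8 and 75.1 in C1C3b and 98 and 75.7 in C1C3c. FL overlapped mCherry, and all other constructs stood above both. Its log2 fold change was 4.13 ± 0.55 (SE; limma adjusted p = 7e-05) in C1C3c, 2.88 ± 0.55 (SE; limma adjusted p = 0.0018) in C1+14 and 0.37 ± 0.55 (SE; limma adjusted p = 0.58) in FL.

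Hoxc10, a gene of the lumbar region, had 21.1 and 27.5 in mCherry, 29.2 and 18 in C1+14, 27.1 and 25.7 in C1C3c and 7.37 and 14.3 in FL. It had 1.68 and 4.86 in C3+14, 5.53 and 5.66 in C1C3a and 5.26 and 3.75 in C1C3b. The last 3 groups lay under all the others. Against mCherry the change was -2.66 ± 0.53 (SE; limma adjusted p = 0.00071) on the log2 scale in C3+14, and in C1C3a the call (-1.93) ended without mCherry replicate 2. Hoxc4, an anterior member of the cluster, was called against mCherry in no construct, with 36.3 and 26.6 in mCherry, 16.2 and 20.2 in FL and 56.3 and 68.8 in C1+14. With RPM it was called lower in FL (-1.72), C3+14 (-1.65) and C1C3a (-1.32). Hoxc11 fell from 31.7 and 23.2 in mCherry to 0 and 2.38 in FL, and Hoxc9 from 15.8 and 12.9 to 4.42 and 3.57. The Hoxc9 call ended without FL replicate 2 (-1.50) or mCherry replicate 1 (-1.48), and DESeq2 did not make it. The Hoxc11 call in C1C3b ended without any 1 of its 4 libraries, and that in C3+14 without C3+14 replicate 1 or mCherry replicate 1.

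The Hoxa cluster (chromosome 6, - strand) set FL apart from the other constructs. Of its 9 tested members, limma called none in FL against mCherry, with 0 at an unadjusted p under 0.05, and edgeR and DESeq2 also called none. Under RPM 1 member was called lower in FL, and under quantile normalisation 3, Hoxa5, Hoxa10 and Hoxa13, were. Higher than mCherry were 7 members in C1C3b, 5 in each of C3+14, C1C3a and C1C3c, and 4 in C1+14, with none lower. Of all tested genes, 27.6% were called higher in C1C3b, 29.6% in C3+14, 27.4% in C1C3a, 18.3% in C1C3c and 12.4% in C1+14. In FL, limma called 44.2% of all genes in either direction. The cluster sum was 122 and 117 in mCherry, 86.9 and 155 in FL, and 270 and 324 in C1+14. It was 614 and 632 in C1C3c, 820.2 and 568 in C1C3a, 727 and 795 in C3+14, and 895 and 697 in C1C3b.

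Hoxa2, which patterns the hindbrain and face, had 0 and 0.858 in mCherry and no reads in FL. It had 8.04 and 21.1 in C1+14, 16.6 and 4.25 in C1C3a, 32.4 and 48.8 in C1C3b, 36.2 and 42.6 in C1C3c and 41.9 and 55.1 in C3+14. Against the floor of 3 reads in each FL library, C3+14 was at least 12.1-fold higher. The mCherry libraries held 1 read in all, against 59 in C3+14 and 45 in C1+14. The ratio of pooled reads to mCherry was 130.3 in C3+14 (95% exact conditional interval 22.5 to 5232, counting error only) and 40.5 in C1+14 (6.90 to 1634). The fitted log2 fold changes, 5.17 ± 0.64 (SE; limma adjusted p = 1.3e-05) in C3+14 and 3.37 ± 0.64 (SE; limma adjusted p = 0.0017) in C1+14, depend on the pseudocount of 1. Gm28308 shares 15.04% of its exons on the same strand.

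Hoxa9, a posterior gene known from leukaemia, had 3.96 and 1.72 in mCherry, 1.47 and 8.33 in FL and 7.31 and 27.3 in C1+14. It had 42.2 and 38.5 in C1C3c, 79.8 and 77 in C1C3b, 151 and 79.3 in C1C3a and 174 and 196 in C3+14. FL overlapped mCherry, and C3+14 was the highest of all groups. Against mCherry the change was 5.66 ± 0.66 (SE; limma adjusted p = 7.5e-06) on the log2 scale in C3+14 and 0.39 ± 0.66 (SE; limma adjusted p = 0.64) in FL. In C1+14 it was 2.06 ± 0.66 (SE; limma adjusted p = 0.03), and the call ended without C1+14 replicate 2 (1.18) or either mCherry library (2.5 and 1.63).

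Hoxa13, at the posterior end, had 6.6 and 3.43 in mCherry, 4.42 and 3.57 in FL and 8.77 and 16.1 in C1+14. It had 16.6 and 13.5 in C1C3c, 38.6 and 33.8 in C1C3b, 44.3 and 21.2 in C1C3a and 58.6 and 45.4 in C3+14. C3+14 did not overlap C1C3a, and FL lay within the mCherry range. Against mCherry the change was 3.18 ± 0.50 (SE; limma adjusted p = 0.00011) on the log2 scale in C3+14, while the C1C3c call (1.46) ended without either C1C3c library (1.32 and 1.60) or mCherry replicate 2 (1.07).

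Hoxa3, a gene of the pharynx, ranged from 1.19 to 16.2 over mCherry and FL and from 15.6 to 70.9 over the other constructs, so the ranges touch. Hoxa10, a gene of the uterus and lower spine, had 8.58 and 6 in mCherry, 43.9 and 38.5 in C1C3b and 37.6 and 7.08 in C1C3a. It was called in C1C3b alone among the constructs (2.36 ± 0.91 (SE; limma adjusted p = 0.039)), and this call ended when any 1 of the 4 libraries was left out. The Hoxa5 call in C1C3b (2.12) likewise ended without any 1 of them, and those of Hoxa3 in C3+14, C1C3a and C1+14 each ended without at least 2 of their 4 libraries in turn. Hoxa4 and Hoxa7 were called in no construct.

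**Figure D3:**
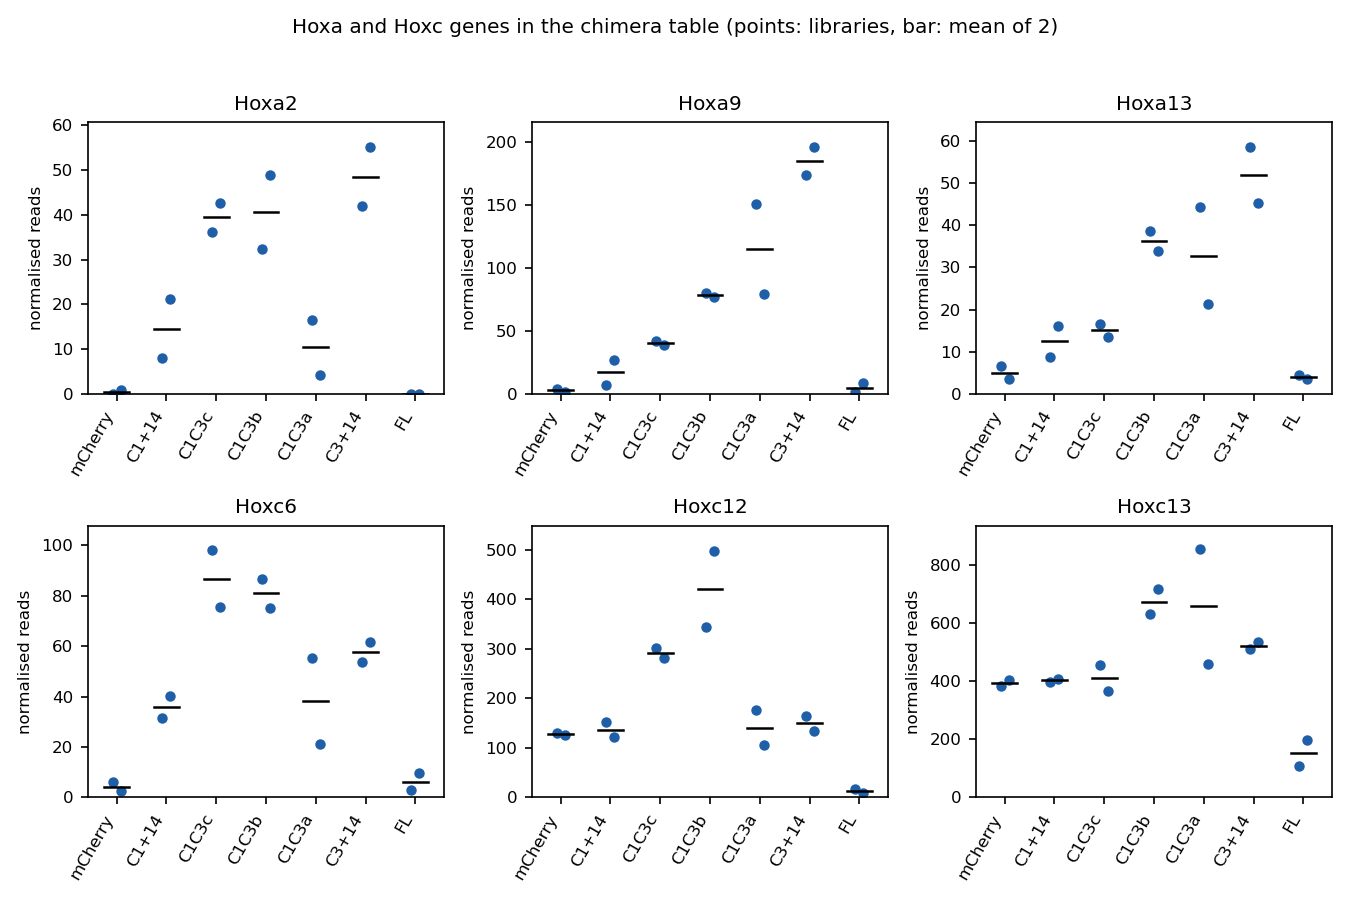
Points are the normalised reads of single libraries (y axis, starting at 0) for 3 Hoxa and 3 Hoxc genes by construct (x axis), and bars are the mean of 2. For Hoxa2, Hoxa9 and Hoxa13 the FL points lie at 8.33 or less, near those of mCherry, and for Hoxc12 and Hoxc13 they lie under it.

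**Figure D4:**
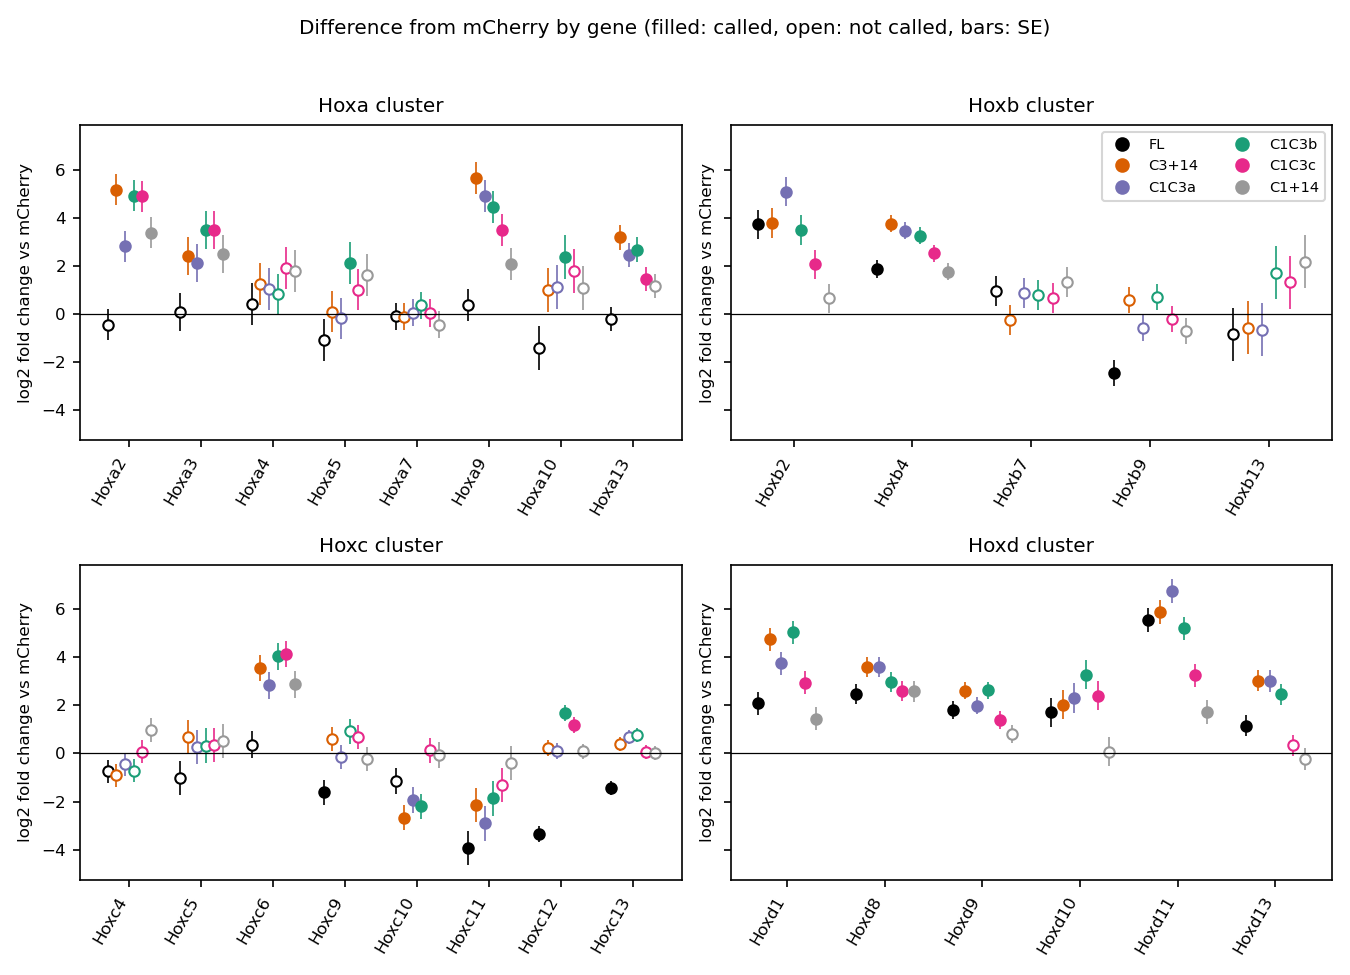
Points are log2 fold changes against mCherry on the log2(normalised reads + 1) scale (y axis) for the tested Hox genes reported by name (x axis, a panel for each cluster), coloured by construct, with SE bars. Filled points were called, open points were not. In the Hoxa panel the FL points lie near or under 0 while those of C3+14 reach 5.66 for Hoxa9, and in the Hoxd panel all FL points are filled, which under RPM held for 3 of the 6.

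Markers of other cell types also changed, in directions that differed between lists and constructs. Of all genes, 29.6% were called higher than mCherry in C3+14, 27.6% in C1C3b and 27.4% in C1C3a. The share was 24.5% in FL, 18.3% in C1C3c and 12.4% in C1+14, and shares called lower ran from 5.95% to 19.6%. Some counts in these short lists lie near those shares. The 5 primitive endoderm markers (Gata4, Gata6, Sox17, Sox7 and Foxa2) summed to 45.5 to 54.9 in mCherry and 84.0 to 92.9 in FL, but to 436 to 449 in C3+14, 212 to 421 in C1C3a and 414 to 493 in C1C3b. Sums were 171 to 179 in C1C3c and 139.6 to 158 in C1+14. Of these 5 markers, 4 were called higher than mCherry in C1C3b, 3 in each of C1C3a and C3+14, 2 in each of C1C3c and C1+14, and 1 in FL, while 1 was lower in C3+14 and 1 in FL. The 6 neural markers summed to 77.2 to 96.99 in mCherry, 42.7 to 57.1 in FL and 126 to 292 in the 5 other constructs. Of the 5 neural markers tested, 3 were called higher in each of C3+14, C1C3a and C1C3b and 2 in C1C3c, with none lower. In FL 1 was called higher and 1 lower, and in C1+14 Pax6 alone was called, higher. The 9 fibroblast markers summed to 61.4 to 78.9 in mCherry, 90.5 to 161 in FL, 149 to 178 in C3+14, 117.5 to 131 in C1C3a and 173 to 183 in C1C3b. In C1C3c the sums were 35.4 to 54.1 and in C1+14 59.9 to 102. Of the 6 tested fibroblast markers, 4 were called higher and 1 lower in each of C3+14 and C1C3b, 2 and 1 in C1C3c, 2 and none in C1C3a, 1 and 1 in C1+14, and 1 and none in FL. The fibroblast marker Prrx1 was at 0 in 13 of 14 libraries. The 5 trophectoderm markers summed to 1615 to 1715 in mCherry and to at most 611 in every construct. Within this list Tfap2c was called lower in every construct. Elf5 was called higher in C3+14 (2.42), C1C3b (4.30), C1C3c (4.43) and C1+14 (2.66). The 7 mesoderm markers summed to 167 to 193 in mCherry, 117 to 122 in FL, 279 to 298 in C3+14, 146 to 227 in C1C3a, 240.3 to 421 in C1C3b, 152 to 202 in C1C3c and 213 to 369 in C1+14. Of the 3 mesoderm markers tested, Eomes was called higher in C3+14 and C1C3b (1.19 in the latter) and T lower in C1C3b (-3.33). The part of these cell types in the Hox rises was not tested.

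Direct comparisons gave the difference between FL and the chimeras. Against FL, C3+14 had 13 Hox genes higher and 1 lower of 28, where 26.3% of all genes were called and 16.8% were called higher. The median log2 fold change was 1.80 for the Hox genes and 0.08 for all genes. Higher were 5 Hoxa members (Hoxa2, Hoxa3, Hoxa9 and Hoxa13 among them), Hoxb4, Hoxb9, 4 Hoxc members (Hoxc6, Hoxc9, Hoxc12 and Hoxc13), Hoxd1 and Hoxd13. For Hoxa9 the difference was 5.27 ± 0.66 (SE; limma adjusted p = 4.8e-05) and for Hoxc12 3.56 ± 0.33 (SE; limma adjusted p = 3.5e-06). For Hoxd11 it was 0.32 ± 0.49 (SE; limma adjusted p = 0.63), and for Hoxb2 0.06 ± 0.61 (SE; limma adjusted p = 0.95). Hoxc10 was lower in C3+14 (-1.51), a call that edgeR and DESeq2 did not make.

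FL against C1C3a had 12 of 28 Hox genes lower and none higher (15.6% of all genes called). FL against C1C3b had 17 lower and none higher (43% of all genes). FL against C1C3c had 12 lower and 2 higher, the latter Hoxb2 and Hoxd11 (44% of all genes), and FL against C1+14 had 15 lower and 4 higher (39.9%). These shares of all genes count both directions. Called lower in FL were 11% of all genes against C1C3a, 23.3% against C1C3b, 21.2% against C1C3c and 18.4% against C1+14. Between C3+14 and C1C3a 1 Hox gene was called, and likewise 1 between C3+14 and C1C3b, where 14.9% and 30.2% of all genes were.

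The 3 chimeras were each set against C1+14. Of all genes, 23.4% were called higher and 17.3% lower in C1C3a. The shares were 17.9% and 11% in C1C3b, and 5.37% and 2.46% in C1C3c. C1C3a had 10 Hox genes higher and 4 lower (40.8% of all genes called), and 8 called without C1+14 replicate 1. With RPM the split was 5 higher and 7 lower, and with quantile normalisation 7 and 5. Among those higher were Hoxa9, Hoxa13, Hoxb2, Hoxb4 and the Hoxd genes other than Hoxd8. Lower were Hoxb13, Hoxc4, Hoxc10 and Hoxc11. For Hoxd11 the difference was 5.05 ± 0.49 (SE; limma adjusted p = 1.8e-06), and for Hoxd13 3.24 ± 0.45 (SE; limma adjusted p = 4.2e-05).

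C1C3b had 11 higher and 2 lower than C1+14 (28.9% of all genes). They included Hoxd1 at 3.58 ± 0.48 (SE; limma adjusted p = 7.2e-05) and Hoxd10 at 3.20 ± 0.61 (SE; limma adjusted p = 0.00093). C1C3c had 3 higher, Hoxc12 and Hoxd10 among them, and none lower (7.83% of all genes). None of the 28 was called when C1C3c replicate 2 or C1+14 replicate 2 was left out, and 1 without C1+14 replicate 1. Hoxd8, by contrast, differed from C1+14 by 0.01 ± 0.43 (SE; limma adjusted p = 1) in C1C3c and 0.39 ± 0.43 (SE; limma adjusted p = 0.49) in C1C3b.

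In the deletion table FL was set against constructs that carry or lack the stretches named C12345 and 14. Removing 14 alone (C12345delt14) gave no called Hox gene of 26 by limma, with 6 at an unadjusted p under 0.05, and 0.958% of all 19833 tested genes were called. DESeq2 called 2 (both higher, Hoxc4 among them), edgeR none, and limma 3 without FL replicate 2. The Hox median was 0.96, against -0.04 for all genes.

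deltC12345+14 had 4 Hox genes higher and 2 lower than FL (38.4% of all genes called), a Hox share of 23.1%. Higher were Hoxa5, Hoxc4, Hoxc11 and Hoxc12, and lower were Hoxb2 and Hoxd11. Without FL replicate 2 the number was 11, with 9 higher. With RPM 15 were higher and 2 lower, and with quantile normalisation 10 and 2. The median of all genes moved from -0.08 to 1.11 under RPM and to 0.23 under quantile normalisation. Relative to it, the Hox median was 1.16 with the authors' scaling, 1.02 with RPM and 1.57 with quantile normalisation. The RPM value is again tied to that of the authors' scaling by construction.

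deltC12345delt14 had 6 higher and 2 lower than FL (39.1% of all genes). Higher were Hoxa5, Hoxc4, Hoxc9, Hoxc11, Hoxc12 and Hoxc13, and lower were Hoxb2 and Hoxd11. The count was 5 without deltC12345delt14 replicate 1 and 5 without replicate 2, and 12 without FL replicate 2. With RPM, and with quantile normalisation, 11 were higher and 2 lower. Both comparisons share the FL libraries.

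Hoxd11 had 101 and 194 in FL and 277 and 169 in C12345delt14. It had 8.42 and 2.15 in deltC12345+14 and 4.93 and 6.63 in deltC12345delt14. The groups with C12345 and those without it did not overlap. The log2 fold changes against FL were -4.70 ± 0.63 (SE; limma adjusted p = 0.00088) and -4.39 ± 0.63 (SE; limma adjusted p = 0.0011).

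Hoxb2 had 10.9 and 20.8 in FL and 35.4 and 21.3 in C12345delt14, and no reads in the 4 libraries of deltC12345+14 and deltC12345delt14. Against the floor of 3 reads per library it was at least 7.45-fold lower in deltC12345+14 and at least 6.41-fold lower in deltC12345delt14 than in FL. The fitted log2 fold change was -4.01 ± 0.59 (SE; limma adjusted p = 0.0013) in deltC12345+14.

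Hoxc4 went the other way, with 19.9 and 25.3 in FL, 48 and 86.1 in C12345delt14, 158 and 127 in deltC12345+14 and 153 and 169.9 in deltC12345delt14. The 4 groups ranged upward in that order, and the last pair overlapped. The log2 fold change was 2.79 ± 0.38 (SE; limma adjusted p = 0.00085) in deltC12345delt14. Hoxc12 had 19.9 and 10.4 in FL, 40 and 40.2 in C12345delt14, 70.1 and 90.5 in deltC12345+14 and 73.1 and 88.7 in deltC12345delt14, a log2 fold change of 2.38 ± 0.43 (SE; limma adjusted p = 0.0028) in deltC12345+14. Hoxa5 stood at 1.49 or less in FL and from 5.03 to 18.2 in the 2 groups without C12345, and both its calls ended without FL replicate 1. They also ended without replicate 1 of deltC12345+14 and of deltC12345delt14, and under DESeq2. The Hoxc11 calls ended without FL replicate 1, deltC12345+14 replicate 1 and deltC12345delt14 replicate 2, and those of Hoxc9 and Hoxc13 without either deltC12345delt14 library, Hoxc13 also without FL replicate 1.

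Of the other Hoxd members, none was called between FL and the groups without C12345. Hoxd8 had 48.9 and 153 in FL, 218 and 152 in C12345delt14, 92.6 and 48.8 in deltC12345+14 and 51.7 and 49.7 in deltC12345delt14. Hoxd9 had 85.2 and 146 in FL, 162 and 82.8 in C12345delt14, 82.8 and 17.2 in deltC12345+14 and 27.9 and 57.2 in deltC12345delt14. FL overlapped the groups without C12345 at Hoxd8, and at Hoxd9 it lay above them, with wide gaps between replicates.

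**Figure D5:**
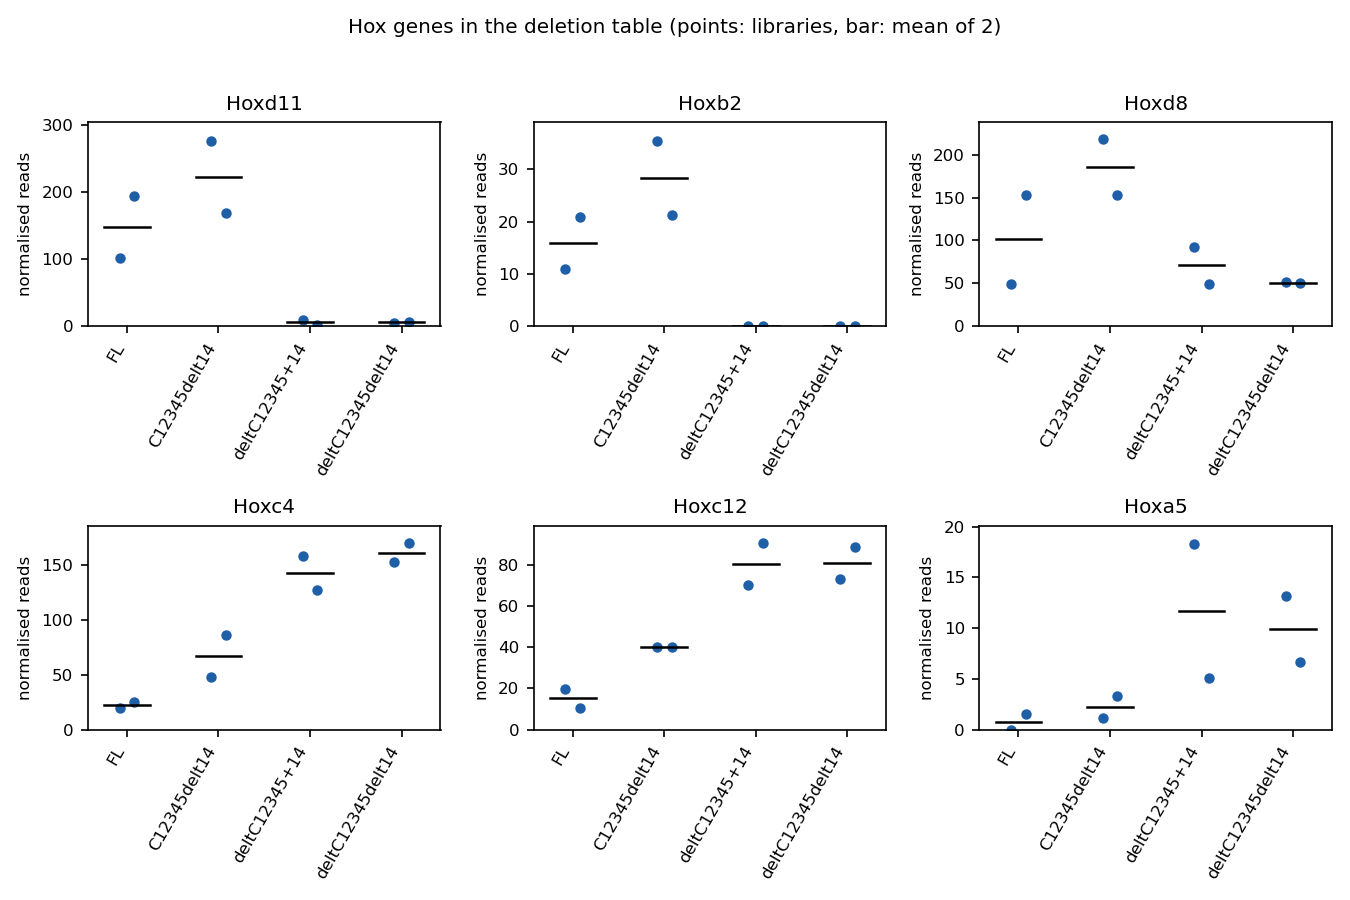
Points are the normalised reads of single libraries (y axis, starting at 0) for 6 Hox genes in the deletion table by construct (x axis), and bars are the mean of 2. Hoxd11 falls from 101.5 or more in FL and C12345delt14 to 8.42 or less in the groups without C12345, Hoxb2 falls to 0, and Hoxc4 rises.

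Between the groups that lack 14, C12345delt14 had 4 Hox genes higher and 1 lower than deltC12345delt14 (22% of all genes called). Among those higher were Hoxb2, Hoxd8 and Hoxd11, and lower was Hoxc4. The split was 2 and 3 with RPM and 3 and 2 with quantile normalisation, and 2 genes were called without C12345delt14 replicate 1 or either deltC12345delt14 library. deltC12345+14 and deltC12345delt14 differed at 0 of 26 Hox genes and 0 of 19833 genes (0%) by limma, with 0 of the 26 at an unadjusted p under 0.05. No other tool was run on that pair. A test of whether removing 14 had a different effect with and without C12345, chosen after the data were seen, passed at 0 of 19833 genes by limma (2748 at an unadjusted p under 0.05) and 0 of 26 Hox genes (3 at an unadjusted p under 0.05). The F test over the 4 groups called 7 of 26 Hox genes, where it called 49.6% of all genes, and 4 without either deltC12345delt14 library.

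Genes of factors known to act on Hox clusters were counted beside all tested genes. For C1+14, 5.95% of all genes were called lower than mCherry, and for C1C3c 10.5%. The share was 17.1% for C1C3b, 17.7% for C3+14, 19% for C1C3a and 19.6% for FL.

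Of 9 TALE cofactors, 6 were called lower than mCherry in C1C3a, 5 in C3+14, 3 in C1C3b, 2 in each of FL and C1C3c and none in C1+14, and 1 was called higher in C3+14, C1C3b, C1C3c and C1+14. The share called lower was 66.7% in C1C3a and 22.2% in FL, the latter near that of all genes. Their median log2 fold change was -1.55 in C1C3a (0.12 for all genes) and -0.60 in FL (0.09). Meis1, a HOX partner, had 16.5 and 19.7 in mCherry and 168 and 221 in C1C3b (3.34 ± 0.46 SE; limma adjusted p = 3.7e-05). Pbx2, another partner, had 734 and 636 in mCherry and 116 and 152 in C1C3b (-2.36 ± 0.29 SE; limma adjusted p = 1.4e-05). Pknox2 had 412 and 367 in mCherry and 75.4 and 61.5 in C3+14, without overlap.

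Of 32 Polycomb genes, 16 were called lower and 2 higher in C1C3b, 13 lower and none higher in FL, 12 and 1 in C1C3c, 11 and 2 in C1C3a, 11 and 1 in C3+14, and 4 and 1 in C1+14. The share called lower was 50% in C1C3b, 40.6% in FL and 12.5% in C1+14. The list's median log2 fold change was -0.85 in C1C3b (0.15 for all genes) and -0.82 in FL. Pcgf2, a subunit of a repressive complex, had 1665 and 1753 in mCherry and 152 and 156 in C1C3b (-3.47 ± 0.22 SE; limma adjusted p = 4.3e-08). Cbx6 had 1377 and 1387 in mCherry and 144 and 125 in C3+14, and Epop had 5235 and 5359 in mCherry and 460.4 and 635 in C1C3b. All 3 fell without overlap. Of 14 Trithorax genes, 9 were lower and 1 higher in C3+14. The numbers lower were 7 in C1C3b, 6 in C1C3a, 4 in FL and 1 in each of C1C3c and C1+14, with none higher. These make 64.3% of the list lower in C3+14 and 28.6% in FL, with medians of -1.10 and -0.58 on the log2 scale. Kmt2a, a methyltransferase that maintains Hox expression, had 1418 and 1506 in mCherry and 323 and 274 in FL. Ash1l and Rbbp5, 2 more of this group, also fell in FL, from 681 and 694 to 155 and 131 and from 2511 and 2564 to 519 and 770.2. These falls were not particular to FL. Kmt2a was also called lower in C1C3a (-2.25), C3+14 (-2.19) and C1C3b (-1.47), against -2.29 in FL. Ash1l was called lower in C1C3a (-1.99) and C3+14 (-1.37), and Rbbp5 in C1C3a (-1.45) and C3+14 (-1.07). None of these genes was called in C1C3c or C1+14.

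Of 20 tested retinoic acid and Cdx genes, 7 were higher and 9 lower in C1C3a, 7 and 8 in each of C1C3b and C3+14, 6 and 8 in FL, 5 and 4 in C1C3c, and 2 and 1 in C1+14. Calls in either direction took in 80% of the list in C1C3a, 70% in FL and 15% in C1+14, against 46.4%, 44.2% and 18.3% of all genes. The list's median log2 fold change was -1.51 in C1C3a and -1.37 in FL. Rarg, a retinoic acid receptor, fell from 1914 and 1895 in mCherry to 26.3 and 33.8 in C1C3b. Aldh1a1, which makes retinoic acid, rose from 0.66 and 0 in mCherry to 179 and 177 in C3+14. Rxrg, a partner of the retinoic acid receptors, was at 0 in mCherry and at 91.9 and 115 in C1C3a. Cdx2, which activates posterior Hox genes, had 29.7 and 34.3 in mCherry and 4.42 and 0 in FL. It was called lower by a similar amount in C3+14 (-3.57), C1C3a (-3.35) and C1C3b (-3.19), against -3.82 in FL. In C1C3c (-0.98) and C1+14 (-1.82) it was not called.

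Neighbouring transcripts followed no single direction. Of 3 tested noncoding RNAs of the clusters, 2 were lower in each of FL, C3+14, C1C3a and C1C3b, 1 in C1C3c and none in C1+14, and 1 was higher in C1C3a and in C1C3b. Halr1 had 314.1 and 325 in mCherry and 44.3 and 115 in C1C3a. Mir196a-1 fell from 81.8 and 84.1 in mCherry to 6.14 and 0.939 in C1C3b. Of 20 genes flanking the clusters, 3 were higher and 7 lower in C1C3b, 3 and 6 in each of C1C3a and C3+14, 2 and 6 in FL, 3 and 3 in C1C3c, and 1 and 3 in C1+14. In all 6 comparisons the share called in either direction was near that of all genes: 50% against 44.7% in C1C3b, 45% against 47.3% in C3+14, 45% against 46.4% in C1C3a, 40% against 44.2% in FL, 30% against 28.8% in C1C3c and 20% against 18.3% in C1+14. Ttll6, beside Hoxb, had 441 and 473 in mCherry and 9.96 and 32.6 in C1C3a. Nfe2, near Hoxc, fell from 66.6 and 59.2 to 9.05 and 0 in C1C3c, and Calcoco2 from 8878 and 9702 to 2472 and 782.

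Among the chimera libraries, 11 Hox genes were too low to test: Hoxa6, Hoxa11, Hoxb1, Hoxb3, Hoxb5, Hoxb6, Hoxb8, Hoxc8, Hoxd3, Hoxd4 and Hoxd12. Their highest count in any library ran from 2 reads for Hoxb1, Hoxb3 and Hoxb5 to 13 for Hoxc8. Hoxb6 had 0 reads in mCherry and FL and reached 10.5 and 6.57 in C1C3b, which left it at least 3.75-fold above the floor of mCherry. In the deletion table Hoxa2 and Hoxd10 were also too low, and Hoxb1 and Hoxb6 had 0 reads in all 8 libraries. Hoxd3 overlaps Hoxd4 and Gm28230 on the same strand over 62.4% of its exons, and Hoxd4 overlaps Hoxd3 and Gm28230 over 52.3%. The reads of Hoxd3 and Hoxd4 therefore cannot be assigned with certainty.

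Replicates did not vary evenly at the Hox genes. In FL, replicate 2 was at least 2-fold higher at 11 of the 28 tested Hox genes and lower at 1, where 10.4% and 9.75% of all genes differed by that much. In C1C3a, replicate 2 was at least 2-fold lower at 13 and higher at 2, against 10.5% and 5.10% of all genes. In deltC12345+14, replicate 2 was lower at 12 of 26 and higher at none, against 8.98% and 6.05% of all genes. The pseudogene share also split the latter, at 6.92% in replicate 1 and 4.53% in replicate 2. It split deltC12345delt14 too, at 4.68% and 7.11%, where 8 of 26 Hox genes were at least 2-fold apart and 5 of these were higher in replicate 2, the library with the higher share. The other groups of the chimera table had 2 to 6 Hox genes that far apart.

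Hoxc13, the Hox gene with the highest group mean, resembled Lurap1l, Lhx6 and Tmppe most closely over the 14 libraries of the chimera table, with a Pearson r of 0.96, 0.95 and 0.95 across log2 values. These values describe libraries that share groups and scaling, and they carry no test.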

How the data were processed

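The deposited values are a signal: read counts per gene that the authors divided by 1 size factor per library. The submitters' processing notes name Trim Galore 0.5.0, FastQC, DESeq2 and mm10, and the aligner and counting are not given in the sources used here. Whole reads were recovered by dividing each column by its step (100% of 574693 values above 0 came out whole within 0.001). The FL reads of both tables differed at 0 genes. Symbols, coordinates and exon lengths came from GENCODE M21 (GRCm38), which named 55141 of 55487 identifiers (99.4%).

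The main test was limma 3.58.1 (R 4.3.3; lmFit, eBayes with a trend) on log2(value + 1), with all groups of a table in 1 fit. It used genes with at least 10 in 2 libraries (21584 and 19833 genes). Alternatives were edgeR 4.0.16 (quasi-likelihood) and DESeq2 1.42.0 on the recovered reads, quantile normalisation, a pseudocount of 8, no filter, only the 2 groups compared, a replicate block, leaving out each replicate and, for the calls chosen after seeing the data, RPM. On data simulated for FL against mCherry (21584 genes), the test recovered 100 of 100 genes changed 4-fold and 44 of 100 changed 2-fold, with 1 false call. The simulation gave every library the same dispersion (0.02) and changed only genes above a minimum of mCherry reads. Its rates therefore do not carry over to weakly expressed Hox genes or to replicates that vary more.

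Counts of 3 reads or fewer in both libraries were taken as the floor, which covers counting error only since PCR copies could not be told from separate molecules. Hox genes called in at least 1 of the 14 main comparisons, or with a group mean of at least 50, were named with values, at most 20 by highest group mean. Results of 1 member that the counts, medians and cluster sums include are not reported here. From each list of other genes, up to 3 were named: those called against mCherry with the greatest change, a group mean of 50 or more and groups that did not overlap. The others, and Duxf3, Cdx2 and Prrx1, were chosen after their values were seen. The members and lists were chosen with earlier results of these data known.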

Additional observations from a re-analysis of the deposited data

How the results depend on the processing

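Of 101 Hox calls in the 6 comparisons with mCherry and the 3 of deletion constructs with FL, 65 held under each of 12 alternatives. The log2 fold change of Hoxd10 in C3+14 reversed, to -0.08 (-0.0759), under quantile normalisation. The summed Hoxc cluster in C3+14, 1.25-fold of mCherry, was 0.725-fold by RPM. Other sums also changed direction against mCherry: Hoxc in C1C3a (1.41 to 0.765), Hoxb in C1C3a (1.78 to 0.965) and Hoxa in FL (1.01 to 0.515). Against FL, Hoxb in deltC12345delt14 went from 0.976 to 2.12.

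Numbers of Hox genes called changed by more than 1.5 times as follows. C1+14 against mCherry (9) gave 5 with only the 2 groups compared and 4 with quantile normalisation. C1C3c against C1+14 (3) gave 1 with no filter, 0 with only the 2 groups compared and 5 with DESeq2. C12345delt14 against FL (0) gave 2 with DESeq2. deltC12345+14 against FL (6) gave 12 with quantile normalisation and 17 with RPM, and deltC12345delt14 against FL (8) gave 13 with each. The F test of the deletion table (7) gave 13 with RPM. The cause was not tested.

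Leaving out 1 replicate in turn gave 5 to 9 for C1+14 against mCherry, 8 to 13 for C1C3a against C1+14, 0 to 2 for C1C3c against C1+14 and 0 to 3 for C12345delt14 against FL. It gave 5 to 11 for deltC12345+14 and 5 to 12 for deltC12345delt14 against FL, 2 to 4 for C12345delt14 against deltC12345delt14, and 4 to 9 for the F test of the deletion table. A lone library was assumed to vary like the other groups.

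Deviations of same-numbered libraries correlated from -0.10 to 0.05 in the chimera table, so replicate numbers did not pair those libraries. In the deletion table the range was -0.57 to 0.14, with a median of -0.03. Some same-numbered libraries there thus deviated in opposite directions, which a replicate block cannot remove. With the replicate block the counts against mCherry were 13 for FL, 16 for C3+14, 16 for C1C3a, 18 for C1C3b, 14 for C1C3c and 9 for C1+14. The block gave 6 for deltC12345+14 and 8 for deltC12345delt14 against FL. Depth limited the Hox genes at 3 reads or fewer.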
